A study of Rattus norvegicus with 9 samples.

Results

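The genes described here encode the machinery of DNA replication and mitosis, and they were read in the liver of ovariectomised rats with and without added follicle-stimulating hormone (FSH). The members were chosen by gene symbol, 54 in all: origin licensing and helicase factors, enzymes of the replication fork, enzymes of deoxynucleotide supply, proliferation-linked chromatin proteins, cyclins with their kinases and phosphatase, spindle and checkpoint proteins, and transcription factors of the cell cycle. A row was found for 53 of the 54 among the 24496 genes of the count table, and no row carried the symbol Ccnb2. Every rat was a wild-type Wistar female that began a western diet at 10 weeks of age, was ovariectomised after 6 weeks on it, was given degarelix, which blocks the pituitary receptor for gonadotropin-releasing hormone, and then had an osmotic pump implanted. The pumps of 5 rats held vehicle alone (the vehicle group, degarelix without FSH), and those of the other 4 delivered FSH at 6 µg per kg per day (the FSH group). Food was restricted for 12 days so that the weight from before surgery was held, was free for 7 days, and was withdrawn 4 h before the liver was taken at 19 weeks of age. Both groups therefore lacked ovaries and received degarelix, and no rat with ovaries or without degarelix was among the samples.

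Libraries of mRNA from the liver of single rats were sequenced, so a value is an average over all cells of the tissue, and fewer cells of a type cannot be told apart from less RNA per cell. The table assigned 19295580 to 28672439 reads to genes per vehicle library and 23430807 to 27008941 per FSH library. Levels are given as counts per 1000000 reads (CPM), scaled between libraries with edgeR's TMM factors; 1 read was worth 0.0353 to 0.0531 CPM. The values are not divided by transcript length, so they are compared between animals and not between genes. No library stood apart in its total, and Alb, Ttr and the other hepatocyte markers were abundant in all 9, with a summed level of 191006 to 238262 CPM in the vehicle libraries and 170045 to 274696 CPM in the FSH libraries, where FSH replicate 1 was the highest.

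Before a cell copies its DNA, the origin recognition complex, Cdc6 and Cdt1 load a ring of the proteins Mcm2 to Mcm7 onto origins. Cdc45 and the GINS complex then turn that ring into the moving helicase, behind which primase, DNA polymerases, the sliding clamp Pcna, its loaders and the ligase synthesise the new strands. E2F transcription factors switch on these S-phase genes when cyclin D and cyclin E kinases inactivate the retinoblastoma proteins, and a later wave of transcription, which passes through CHR and CCAAT elements and the factors FoxM1 and B-Myb, supplies the cyclins, kinases and motors of mitosis. Most hepatocytes of an adult liver are quiescent and re-enter this cycle after loss of tissue or injury, so the transcripts are usually scarce in an undisturbed liver.

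The letters of elements for both waves were looked for in the promoters of these genes. RefSeq promoters of the GRCr8 assembly were matched by symbol to 41 of the 53 genes, giving 43 promoters, and the 250 bases before each start were searched on both strands. Of them 9 (20.9%) held E2F letters, spelled TTTCGCGC, TTTGGCGC, TTTCCCGC or TTTGCCGC, compared with 1.73% of all 33469 rat promoters of that length in the table. The genes with E2F letters were Mcm2, Mcm5, Mcm6, Mcm7, Gins1, Pola1, Tyms, Uhrf1 and Cdk1, and the licensing and helicase genes held 5 of the 9. CHR letters (TTTGAA or TTCGAA) were in 25.6% of the members' promoters and 17.4% of all, and CCAAT letters in 69.8% and 34.0%. A match of letters is a description of the sequence and not evidence of a bound factor. Cdc45, Fen1 and Rfc4, which were lower with FSH, held no E2F letters, and no promoter was matched for E2f1. Not all genes with E2F letters are shown. The others, Uhrf1, Mcm7, Pola1 and Tyms, had log2 fold changes, FSH over vehicle, of −0.58, −0.36, −0.10 and −0.05. Shown first are promoters of 4 replication genes with E2F letters that were lower with FSH, then that of Cdk1, which held letters of all 3 kinds, and last that of the proliferation marker Mki67, which held CHR and CCAAT letters without those of E2F. Each is written 5′ to 3′ along the gene and ends at the base before the start, with every match to the 3 kinds of letters, or to their reverse complement, in capitals; matches on opposite strands overlap where the E2F letters are nearly palindromic, and a CHR and a CCAAT match overlap in Mki67.
Mcm5: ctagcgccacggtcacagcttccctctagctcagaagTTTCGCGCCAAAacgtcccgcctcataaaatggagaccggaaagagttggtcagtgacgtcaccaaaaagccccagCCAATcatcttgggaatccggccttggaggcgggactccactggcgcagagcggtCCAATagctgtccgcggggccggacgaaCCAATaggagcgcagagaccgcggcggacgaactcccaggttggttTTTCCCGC
Mcm6: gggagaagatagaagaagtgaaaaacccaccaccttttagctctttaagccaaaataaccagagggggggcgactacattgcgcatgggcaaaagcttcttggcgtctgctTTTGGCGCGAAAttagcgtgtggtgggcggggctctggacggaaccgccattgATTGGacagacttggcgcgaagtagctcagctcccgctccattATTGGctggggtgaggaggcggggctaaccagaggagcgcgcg
Mcm2: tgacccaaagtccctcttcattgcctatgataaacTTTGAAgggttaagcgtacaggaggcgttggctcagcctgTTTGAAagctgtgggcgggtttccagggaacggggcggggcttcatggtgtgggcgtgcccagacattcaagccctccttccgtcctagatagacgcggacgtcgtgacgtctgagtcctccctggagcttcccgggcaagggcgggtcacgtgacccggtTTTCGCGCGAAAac
Gins1: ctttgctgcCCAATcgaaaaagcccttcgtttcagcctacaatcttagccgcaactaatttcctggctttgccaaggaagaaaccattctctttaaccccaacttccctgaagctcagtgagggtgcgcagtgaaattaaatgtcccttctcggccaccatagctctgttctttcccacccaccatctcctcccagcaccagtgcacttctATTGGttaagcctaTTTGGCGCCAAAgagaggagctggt
Cdk1: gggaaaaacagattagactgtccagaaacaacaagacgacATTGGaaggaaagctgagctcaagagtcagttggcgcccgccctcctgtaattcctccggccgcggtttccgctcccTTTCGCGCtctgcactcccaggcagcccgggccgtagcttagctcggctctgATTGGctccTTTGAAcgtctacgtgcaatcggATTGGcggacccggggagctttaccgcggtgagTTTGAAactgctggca
Mki67: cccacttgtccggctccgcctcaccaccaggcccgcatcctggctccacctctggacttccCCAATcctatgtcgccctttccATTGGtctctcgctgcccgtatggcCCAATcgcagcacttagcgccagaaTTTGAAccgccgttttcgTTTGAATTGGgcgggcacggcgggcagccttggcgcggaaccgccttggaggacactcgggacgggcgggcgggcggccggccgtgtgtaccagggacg
The coordinates of these promoters on GRCr8 are chr19:13488563-13488812 (plus strand) for Mcm5, chr13:42404353-42404602 (minus strand) for Mcm6, chr4:122918095-122918344 (minus strand) for Mcm2, chr3:160184670-160184919 (plus strand) for Gins1, chr20:19265043-19265292 (plus strand) for Cdk1 and chr1:199952594-199952843 (minus strand) for Mki67. The submitters' processing notes name another build, rn6, so these positions are not those of the deposited counts. In Mcm5, the gene with the lowest fold change of the set, E2F letters began at positions −213 and −8 relative to the start. In Mcm2 they began at −14 and in Gins1 at −25.

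No member passed an adjusted p of 0.05 in edgeR's quasi-likelihood test, although the members were mostly lower in the FSH group. The test could be made on 41 of the 53 genes, and 37 of these (90.2%) had a lower fitted level with FSH, where 49.5% of all 11924 genes tested did. Their median log2 fold change, FSH over vehicle, was −0.38, beside 0.0019 for all genes tested. The smallest adjusted p of a member was 0.204, shared by Cdc45 and E2f1, and among all genes 4 (0.0335%) passed. At an unadjusted p under 0.05, 17 of the 41 members (41.5%) were lower, compared with 5.14% of all genes tested, and 0 members were higher, compared with 6.42%. In 6 members (14.6%), namely Mcm5, Cdc45, Gins1, Fen1, Rfc4 and E2f1, every FSH animal was below every vehicle animal, which was so for 1.92% of all genes tested, and 0 members had every FSH animal above, compared with 2.19%. The members were read in the same 9 animals, so their number does not stand for independent observations.

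DESeq2 fitted all 53 members and called 4, all lower with FSH. It gave no adjusted p to some members with few reads, among them Kif20a, Uhrf1, Aurkb and Cdk1. Of the 11678 genes that had an adjusted p, it called 1.52% in either direction and 0.582% as lower. The 4 members called were Mcm5 (DESeq2 adjusted p = 0.00568), E2f1 (0.0169), Fen1 (0.0317) and Cdc45 (0.0412), which are also among the 6 genes without overlap. The filter on low counts bears on the set, because 9 of the tested members had fewer than 4 FSH libraries above its level. Only 3 had fewer than 4 vehicle libraries above it. Of the 6 genes without overlap, Gins1 had 5 vehicle libraries and 1 FSH library above that level, and Cdc45 had 5 and 3. Both were thus kept through the vehicle group, where they were higher. Gins2, Ccne2 and Kif20a, among those lower at an unadjusted p under 0.05, also had fewer than 4 FSH libraries above it. With no filter, all 53 genes could be fitted: 48 were lower, 19 at an unadjusted p under 0.05 (4.51% of all genes), and the median was −0.56. With at least 1 CPM required in at least 4 libraries, 32 members stayed, of which 29 were lower and 12 were lower at that p (5.69% of all genes).

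**Figure D1:**
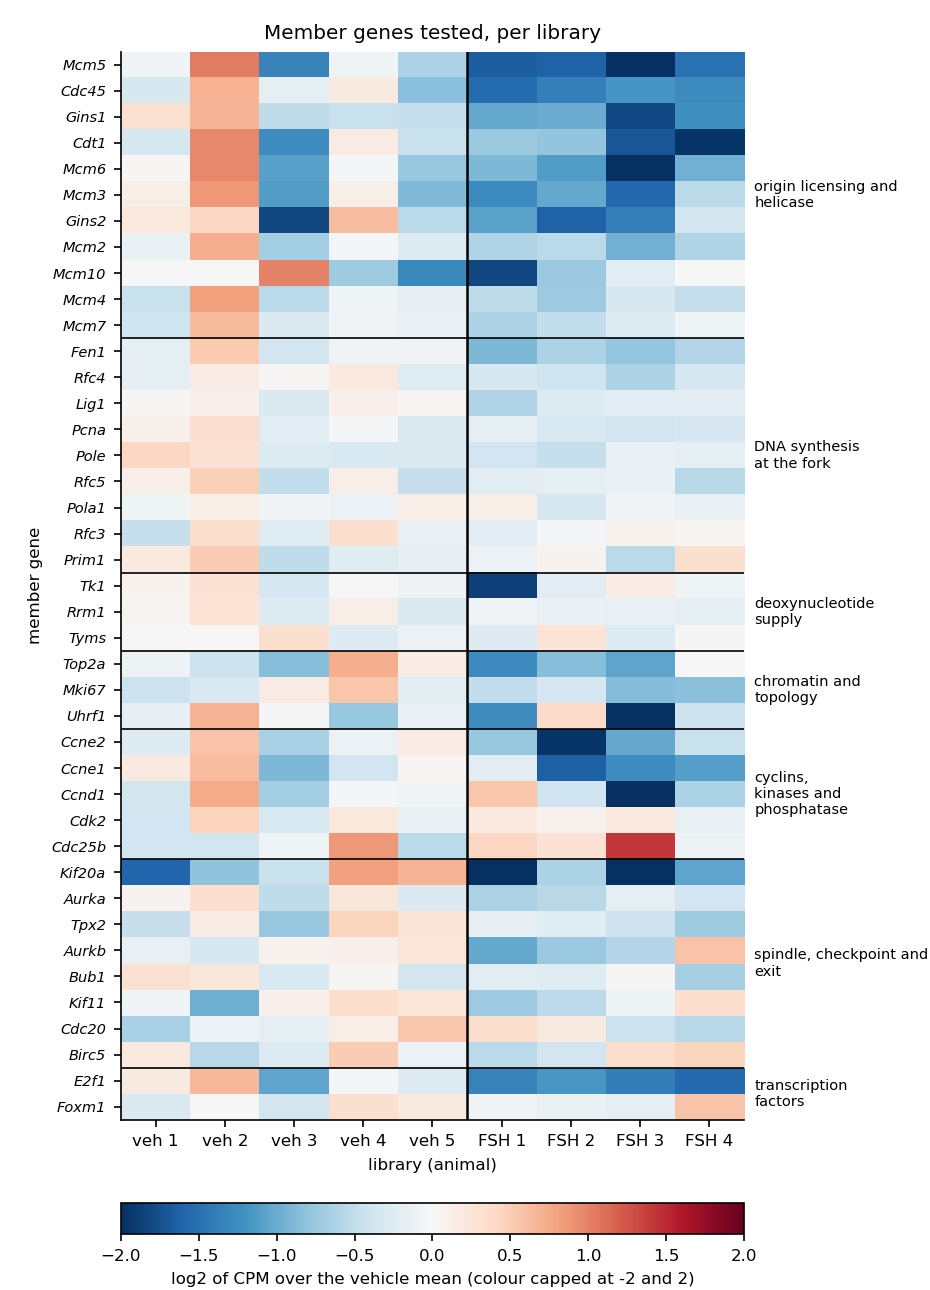
Level of each tested member (rows, grouped by role) in each of the 9 libraries (columns), as the log2 of its CPM over the mean of the vehicle libraries, with the colour capped at −2 and 2. Blue fills most cells of the 4 FSH columns in the licensing and helicase rows, and the red of those rows is mostly in vehicle replicate 2, which was the highest of the 9 libraries for 23 of the 41 members.

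Animals of the vehicle group differed widely among themselves. Vehicle replicate 2 had the highest level of the 9 in 23 of the 41 tested members (56.1%), a position it held for 14.4% of all genes tested. Vehicle replicate 4 was the highest in 9 members, 4 of them spindle genes, and in 9.29% of all genes. Summed over all 53 members, the level was 238, 381, 199, 264 and 229 CPM in vehicle replicates 1 to 5 and 244, 202, 162 and 202 CPM in FSH replicates 1 to 4. Ccnd1 made up much of that sum, and without it the vehicle sums were 185, 266, 156, 198 and 164 CPM and the FSH sums 143, 149, 148 and 158 CPM. The FSH animals lay close together on that sum (149.7 ± 6.08 CPM, SD, n = 4) and the vehicle animals did not (194 ± 43.6 CPM, SD, n = 5), and the lowest vehicle animal overlapped the highest FSH animal. Without vehicle replicate 2, 40 members could be tested, 35 were lower, 12 (30%) were lower at an unadjusted p under 0.05, where 4.91% of all genes were, and the smallest edgeR adjusted p was 0.282. Without FSH replicate 1, the library with the highest sum of hepatocyte markers, 42 could be tested, 36 were lower and 13 were lower at that p, where 4.15% of all genes were. Sums over the members weigh genes with many reads most. Taken instead as the median over the tested members of the log2 level relative to the vehicle mean, the vehicle animals stood at 0.02, 0.35, −0.29, 0.12 and −0.11 and the FSH animals at −0.52, −0.38, −0.37 and −0.32, so that by this measure the groups adjoined without overlapping.

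Genes of origin licensing and the helicase had the lowest median of the roles in the fit of all 9 animals. All 11 that could be tested had a lower fitted level with FSH, 8 at an unadjusted p under 0.05, with a median log2 fold change of −1.06. Their summed level was 58.8, 109.9, 51.4, 62.6 and 49.4 CPM in the vehicle animals and 37.3, 39.6, 39.8 and 47.2 CPM in the FSH animals. The FSH sums were all below the lowest vehicle sum, and the sum in vehicle replicate 2 was far above the rest. That animal was the highest of all libraries for 9 of the 11 genes, so the median leans on it. Without it, the log2 fold changes ran from −1.28 (Mcm5) to −0.14 (Mcm7). In that fit the chromatin genes Mki67 and Top2a had −0.70 and −0.80, within that range.

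Mcm5 (ENSRNOG00000014336), a subunit of the helicase ring, stood at 4.45, 9.43, 1.84, 4.38 and 3.03 CPM in vehicle replicates 1 to 5 and at 1.47, 1.501, 1.002 and 1.64 CPM in FSH replicates 1 to 4. The lowest vehicle animal, replicate 3, was just above the highest FSH animal. Mcm5 had a log2 fold change, FSH over vehicle, of −1.73, with SE 0.43 and an edgeR adjusted p of 0.213. Without vehicle replicate 2 it was −1.28 (SE 0.29). Cdc45 (ENSRNOG00000050071), which joins the ring to form the active helicase, stood at 0.838, 1.69, 0.918, 1.18 and 0.585 CPM with vehicle and 0.357, 0.406, 0.463 and 0.432 CPM with FSH. The FSH animals were within a narrow band below all vehicle animals. The fit gave Cdc45 a log2 fold change of −1.34 with SE 0.31 (adjusted p = 0.204 in edgeR). Omitting vehicle replicate 2 gave −1.10 (SE 0.26). Gins1 (ENSRNOG00000008091), a GINS subunit, had 19, 36, 16, 15 and 11 reads with vehicle and 10, 10, 6 and 8 reads with FSH, or 0.995, 1.296, 0.565, 0.592 and 0.585 CPM and 0.397, 0.406, 0.231 and 0.346 CPM. Although the groups did not overlap, these are few reads. For Gins1, edgeR put the log2 fold change at −1.22 with SE 0.34 (adjusted p = 0.25).

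Mcm6 (ENSRNOG00000003703), another subunit of the ring, had 7.64, 14.5, 3.53, 7.298 and 4.41 CPM with vehicle and 4.01, 3.45, 1.85 and 3.84 CPM with FSH, and vehicle replicate 3 lay within the FSH range. Mcm6 had a log2 fold change, FSH over vehicle, of −1.19, with SE 0.40 and an edgeR adjusted p of 0.321. With vehicle replicate 2 left out, Mcm6 had −0.80 (SE 0.31). Mcm3 (ENSRNOG00000012543), also of the ring, was at 3.53 ± 1.94 CPM with vehicle (SD, n = 5) and 1.71 ± 0.525 CPM with FSH (SD, n = 4). Its vehicle replicates 3 and 5 lay within the FSH range. The fit gave Mcm3 a log2 fold change of −1.06 with SE 0.40 (adjusted p = 0.364 in edgeR). Mcm2 (ENSRNOG00000016316) stood at 11, 19.98, 7.56, 11.8 and 9.99 CPM with vehicle and 7.98, 8.32, 6.17 and 7.91 CPM with FSH. Only vehicle replicate 3 fell within the FSH range, and replicate 2 was the highest by far. For Mcm2, edgeR put the log2 fold change at −0.67 with SE 0.25 (adjusted p = 0.354). Without vehicle replicate 2 it was −0.41 (SE 0.15). Cdt1 (ENSRNOG00000013970), the factor that brings the ring to origins, was at 2.54 ± 1.48 CPM with vehicle and 1.097 ± 0.451 CPM with FSH. Cdt1 had a log2 fold change, FSH over vehicle, of −1.21, with SE 0.44 and an edgeR adjusted p of 0.353. Gins2 (ENSRNOG00000017575), another GINS subunit, was at 0.999 ± 0.508 CPM and 0.491 ± 0.201 CPM in the same order. The fit gave Gins2 a log2 fold change of −1.03 with SE 0.46 (adjusted p = 0.431 in edgeR). Mcm7 (ENSRNOG00000001349) drew the most reads of the licensing genes and stood at 11.4, 23.5, 12.3, 14.4 and 13.8 CPM with vehicle and 9.88, 10.7, 12.5 and 14.3 CPM with FSH. The groups overlapped, and only vehicle replicate 2 was well above the FSH animals. For Mcm7, edgeR put the log2 fold change at −0.36 with SE 0.21 (adjusted p = 0.559). Omitting vehicle replicate 2 gave −0.14 (SE 0.13). The other 2 tested, Mcm4 and Mcm10, had values of −0.50 and −0.56 on the log2 scale, and that of Mcm4 was −0.20 without vehicle replicate 2.

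**Figure D2:**
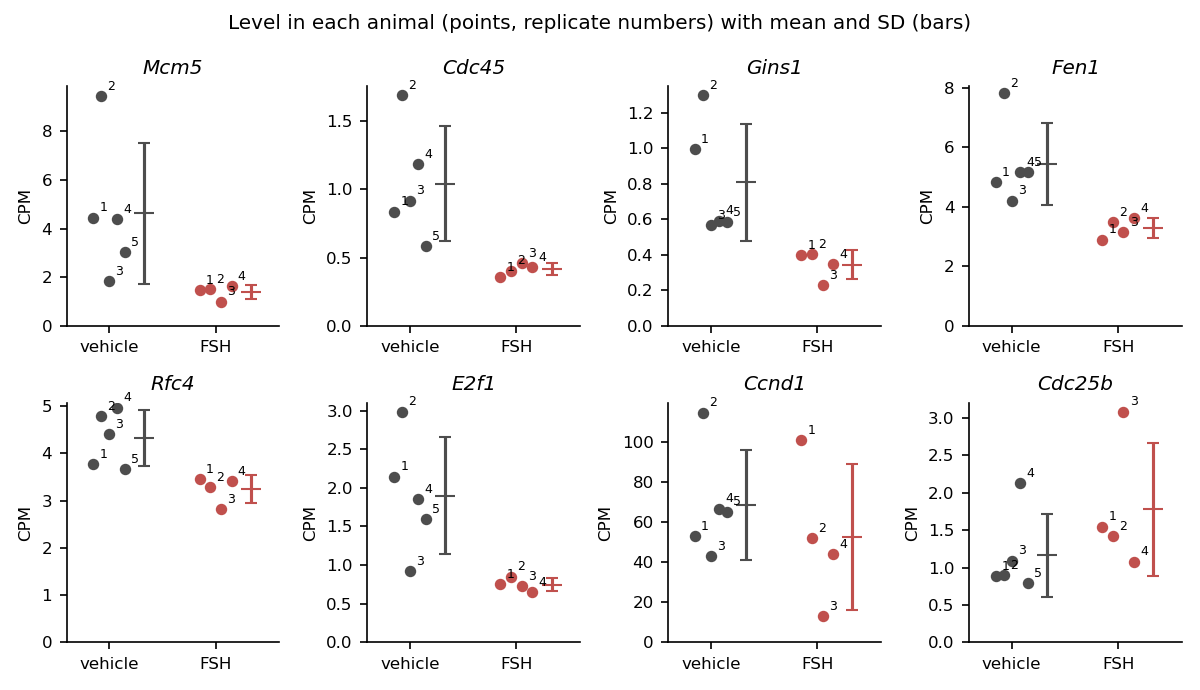
Level in CPM (vertical axes, each from 0) of 8 members in single animals, with points numbered by replicate and bars for the mean and SD of the 5 vehicle and 4 FSH animals. In Mcm5, Cdc45, Gins1, Fen1, Rfc4 and E2f1 every FSH point is below every vehicle point, whereas in Ccnd1 the FSH animals run from 13.2 to 101 CPM and in Cdc25b one animal of each group is high.

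The ring holds 1 copy of each of its 6 subunits, and the 6 genes did not keep the same proportions between animals. Of all reads on Mcm2 to Mcm7, Mcm5 took 9.65, 10.2, 5.38, 8.48 and 7.14% in the vehicle animals and 4.55, 4.67, 3.21 and 4.36% in the FSH animals. The groups did not overlap, with means of 8.17 ± 1.95% (SD, n = 5) and 4.20 ± 0.67% (SD, n = 4), a difference of −3.97 percentage points. A two-sided exact permutation test over the 126 ways of dividing the animals gave p = 0.0159, the smallest it can give, and 0.0952 after Benjamini-Hochberg adjustment over the 6 subunits. Mcm6 took 13.4 ± 2.92% and 9.82 ± 2.76% in the same order (exact permutation adjusted p = 0.248), and Mcm7 took 29.4 ± 4.86% and 35.5 ± 4.29% (exact permutation adjusted p = 0.248). With 6 subunits adjusted together, 0.0952 is the lowest value that a single subunit apart from the others can reach, so this design could not call Mcm5 alone. Mcm2 took nearly equal shares (22.8 ± 0.95% and 22.8 ± 2.93%). The shares depend on the length of each transcript, so they compare animals and not subunits. They were added after the data were seen and use the same reads as the fold changes, so the lower share of Mcm5 is not independent of its lower level.

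**Figure D3:**
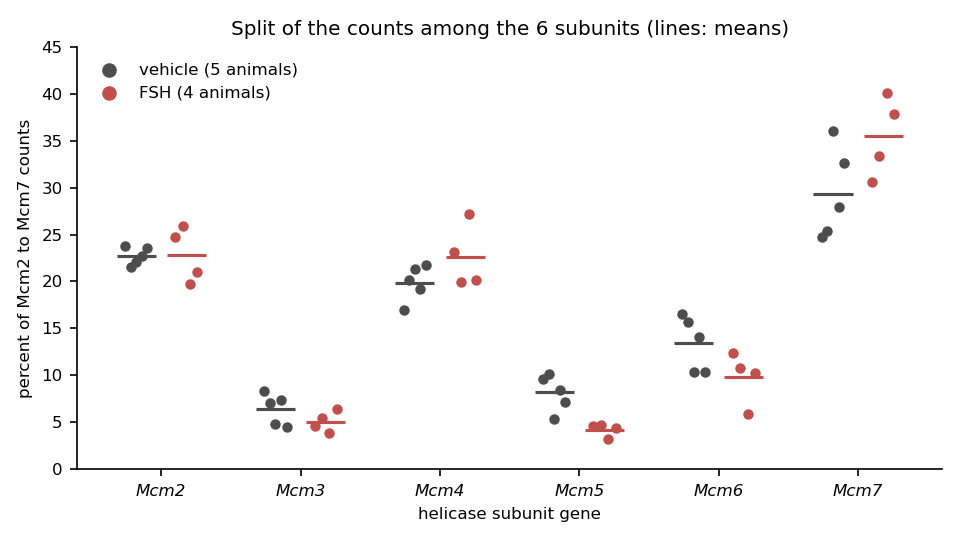
Percentage of all reads on Mcm2 to Mcm7 that fell on each of the 6 genes, per animal (points), with a line at the mean of each group. Each FSH point for Mcm5 is below each vehicle point, and the groups overlap for the other 5 subunits.

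At the replication fork all 9 genes could be tested and had lower fitted levels with FSH, 4 of them at an unadjusted p under 0.05, with a median log2 fold change of −0.28, beside −1.06 for the licensing genes. Summed, they stood at 70.8, 85.6, 54.3, 65.01 and 57.8 CPM with vehicle and 55.2, 56.3, 53.4 and 58.9 CPM with FSH, and the groups overlapped. Fen1 (ENSRNOG00000020531), the flap endonuclease that trims Okazaki fragments, was at 4.82, 7.81, 4.203, 5.17 and 5.16 CPM with vehicle and 2.898, 3.49, 3.16 and 3.63 CPM with FSH, with no overlap. Fen1 had a log2 fold change, FSH over vehicle, of −0.72, with SE 0.18 and an edgeR adjusted p of 0.219. With vehicle replicate 2 left out, Fen1 had −0.56 (SE 0.13). Rfc4 (ENSRNOG00000001816), a subunit of the clamp loader, stood at 3.77, 4.79, 4.42, 4.97 and 3.67 CPM and 3.45, 3.29, 2.81 and 3.41 CPM, also without overlap, though the nearest animals of the groups were close. The fit gave Rfc4 a log2 fold change of −0.42 with SE 0.13 (adjusted p = 0.312 in edgeR). Lig1 (ENSRNOG00000014193), the ligase that seals the fragments, was at 5.07 ± 0.542 CPM with vehicle and 4.05 ± 0.481 CPM with FSH. For Lig1, edgeR put the log2 fold change at −0.32 with SE 0.13 (adjusted p = 0.39). Pcna (ENSRNOG00000021264), the sliding clamp, was at 16.9, 19.8, 13.6, 15.2 and 12.9 CPM with vehicle and 13.8, 12.7, 12.03 and 12.4 CPM with FSH. Its vehicle replicates 3 and 5 were within the FSH range. Pcna had a log2 fold change, FSH over vehicle, of −0.30, with SE 0.12 and an edgeR adjusted p of 0.399. The other 5, Pole, Rfc5, Pola1, Rfc3 and Prim1, had values from −0.28 to −0.04 on the log2 scale and overlapping groups. Without vehicle replicate 2, Rfc5 was at −0.12, and Prim1 and Rfc3 turned to 0.12 and 0.06.

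The 3 tested enzymes of deoxynucleotide supply had the median nearest to 0 of the roles, −0.14. Each had a value below 0 on the log2 scale, 0 of them at an unadjusted p under 0.05. Rrm2, which the filter removed, had no more than 11 reads in a library. It was at 0.326 ± 0.186 CPM with vehicle and 0.166 ± 0.138 CPM with FSH. With no filter its log2 fold change was −0.92 (SE 0.62). Rrm1 (ENSRNOG00000045752), the large subunit of ribonucleotide reductase, stood at 13 ± 2.17 CPM with vehicle and 11.8 ± 0.425 CPM with FSH. The fit gave Rrm1 a log2 fold change of −0.14 with SE 0.12 (adjusted p = 0.709 in edgeR). Without vehicle replicate 2 it was −0.06 (SE 0.11). Tk1 (ENSRNOG00000047314), thymidine kinase, was at 6.23, 7.27, 4.73, 5.96 and 5.53 CPM with vehicle and 1.63, 5.15, 6.59 and 5.62 CPM with FSH. Only FSH replicate 1 was low, and the other FSH animals were within the vehicle range. For Tk1, edgeR put the log2 fold change at −0.32 with SE 0.31 (adjusted p = 0.742). Without that animal the value was −0.04. Tyms (ENSRNOG00000037225), thymidylate synthase, had 2.94 ± 0.457 CPM and 2.85 ± 0.519 CPM, a log2 fold change of −0.05 (SE 0.17).

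Among chromatin proteins tied to proliferation, the 3 tested were lower, with a median of −0.62. Mki67 (ENSRNOG00000028137), which coats mitotic chromosomes and serves as the usual marker of cycling cells, stood at 1.83, 1.98, 2.76, 3.59 and 2.13 CPM with vehicle and 1.75, 1.95, 1.35 and 1.38 CPM with FSH. Vehicle replicates 2 to 5 were above all FSH animals, replicate 2 only just, and replicate 1 lay within the FSH range. Mki67 had a log2 fold change, FSH over vehicle, of −0.62, with SE 0.23 and an edgeR adjusted p of 0.363. Omitting vehicle replicate 2 gave −0.70 (SE 0.24). Mki67 did not share the high value of vehicle replicate 2 seen in licensing genes. Top2a (ENSRNOG00000053047), the topoisomerase that untangles sister chromatids, had 0.956 ± 0.40 CPM with vehicle and 0.584 ± 0.2498 CPM with FSH. The fit gave Top2a a log2 fold change of −0.71 with SE 0.37 (adjusted p = 0.498 in edgeR). Without vehicle replicate 4, its highest animal, that value was −0.44. Uhrf1 (ENSRNOG00000048411), which recruits maintenance DNA methylation at the fork, had 8, 21, 13, 7 and 8 reads with vehicle and 5, 15, 3 and 8 reads with FSH, too few to set the groups apart (−0.58, SE 0.45, on the log2 scale, with −1.11 without FSH replicate 2 and −0.30 without FSH replicate 3).

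Of the 5 cyclin, kinase and phosphatase genes tested, 3 were lower, 2 of them at an unadjusted p under 0.05, and 2 were higher, with a median of −0.38. The cyclin E genes, partners of Cdk2 at entry to S phase, were the pair at that p. Ccne1 (ENSRNOG00000014786) was at 1.57, 2.12, 0.742, 1.07 and 1.43 CPM with vehicle and 1.19, 0.446, 0.578 and 0.648 CPM with FSH. For Ccne1, edgeR put the log2 fold change at −0.94 with SE 0.36 (adjusted p = 0.373). Ccne2 (ENSRNOG00000008055) was at 0.785, 1.404, 0.6005, 0.868 and 1.06 CPM and 0.556, 0.243, 0.463 and 0.691 CPM. Ccne2 had a log2 fold change, FSH over vehicle, of −0.95, with SE 0.33 and an edgeR adjusted p of 0.346. In each gene 3 FSH animals were below all vehicle animals, and the other (replicate 1 for Ccne1, replicate 4 for Ccne2) was within the vehicle range. Ccnd1 (ENSRNOG00000020918), cyclin D1, which relays growth signals to the cycle, ran from 13.2 to 101 CPM among the FSH animals, in the order 101, 52.1, 13.2 and 44.1 CPM, and stood at 53.2, 115, 42.95, 66.8 and 65.3 CPM with vehicle. The spread within the groups was larger than the difference between them. The fit gave Ccnd1 a log2 fold change of −0.38 with SE 0.47 (adjusted p = 0.803 in edgeR). That value was −0.91 without FSH replicate 1, −0.07 without FSH replicate 3 and −0.12 without vehicle replicate 2. Cdk2 (ENSRNOG00000006469) had 13.97 ± 3.49 CPM with vehicle and 14.9 ± 1.61 CPM with FSH, a log2 fold change of 0.09 (SE 0.17). Cdc25b (ENSRNOG00000021248), a phosphatase that activates mitotic Cdk1, was the member with the highest fold change, at 0.8902, 0.8999, 1.09, 2.13 and 0.797 CPM with vehicle and 1.55, 1.42, 3.08 and 1.08 CPM with FSH. For Cdc25b, edgeR put the log2 fold change at 0.61 with SE 0.37 (adjusted p = 0.573). Without FSH replicate 3, the highest of the 9, it was 0.20, and without vehicle replicate 4 it was 0.94.

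Of the spindle, checkpoint and exit genes 8 could be tested and 7 were lower, 1 at an unadjusted p under 0.05, with a median of −0.28. Their summed level was 10.2, 11.4, 9.75, 15.7 and 13.02 CPM with vehicle and 9.05, 9.41, 9.45 and 9.202 CPM with FSH. The FSH animals were alike and the vehicle animals were spread upwards from them, with no overlap between the groups. Kif20a (ENSRNOG00000024428), a kinesin of the cleavage furrow, had 4, 10, 13, 28 and 19 reads with vehicle and 3, 10, 4 and 7 reads with FSH. The high animals were vehicle replicates 4 and 5, and vehicle replicates 1 and 2 lay within the FSH range. Kif20a had a log2 fold change, FSH over vehicle, of −1.34, with SE 0.54 and an edgeR adjusted p of 0.391. Aurka (ENSRNOG00000004479), a kinase of the spindle poles, was at 2.15 ± 0.502 CPM with vehicle and 1.595 ± 0.223 CPM with FSH. The fit gave Aurka a log2 fold change of −0.43 with SE 0.20 (adjusted p = 0.453 in edgeR). Its activator Tpx2 (ENSRNOG00000008165), which drew the most reads of the spindle genes, was at 2.68 ± 0.874 CPM and 2.08 ± 0.329 CPM. For Tpx2, edgeR put the log2 fold change at −0.36 with SE 0.25 (adjusted p = 0.62). Without vehicle replicate 4 that value was −0.23. The other 5 tested, Aurkb, Bub1, Kif11, Cdc20 and Birc5, ran from −0.31 to 0.03 on the log2 scale.

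Of the 2 transcription factors tested, E2f1 was lower at an unadjusted p under 0.05 and Foxm1 was not. E2f1 (ENSRNOG00000016708), an activating E2F of S-phase genes, stood at 2.15, 2.99, 0.918, 1.85 and 1.59 CPM with vehicle and 0.754, 0.852, 0.732 and 0.648 CPM with FSH. The FSH animals were close to each other and below all vehicle animals, of which replicate 3 was the nearest. E2f1 had a log2 fold change, FSH over vehicle, of −1.34, with SE 0.31 and an edgeR adjusted p of 0.204. With vehicle replicate 2 left out, E2f1 had −1.11 (SE 0.27). Foxm1 (ENSRNOG00000005936), an activator of the mitotic wave, was at 1.52, 1.87, 1.45, 2.33 and 2.13 CPM with vehicle and 1.79, 1.704, 1.62 and 2.76 CPM with FSH. Only FSH replicate 4 stood out, on the high side. The fit gave Foxm1 a log2 fold change of 0.08 with SE 0.22 (adjusted p = 0.921 in edgeR). Leaving out that animal turned the value to −0.12.

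**Figure D4:**
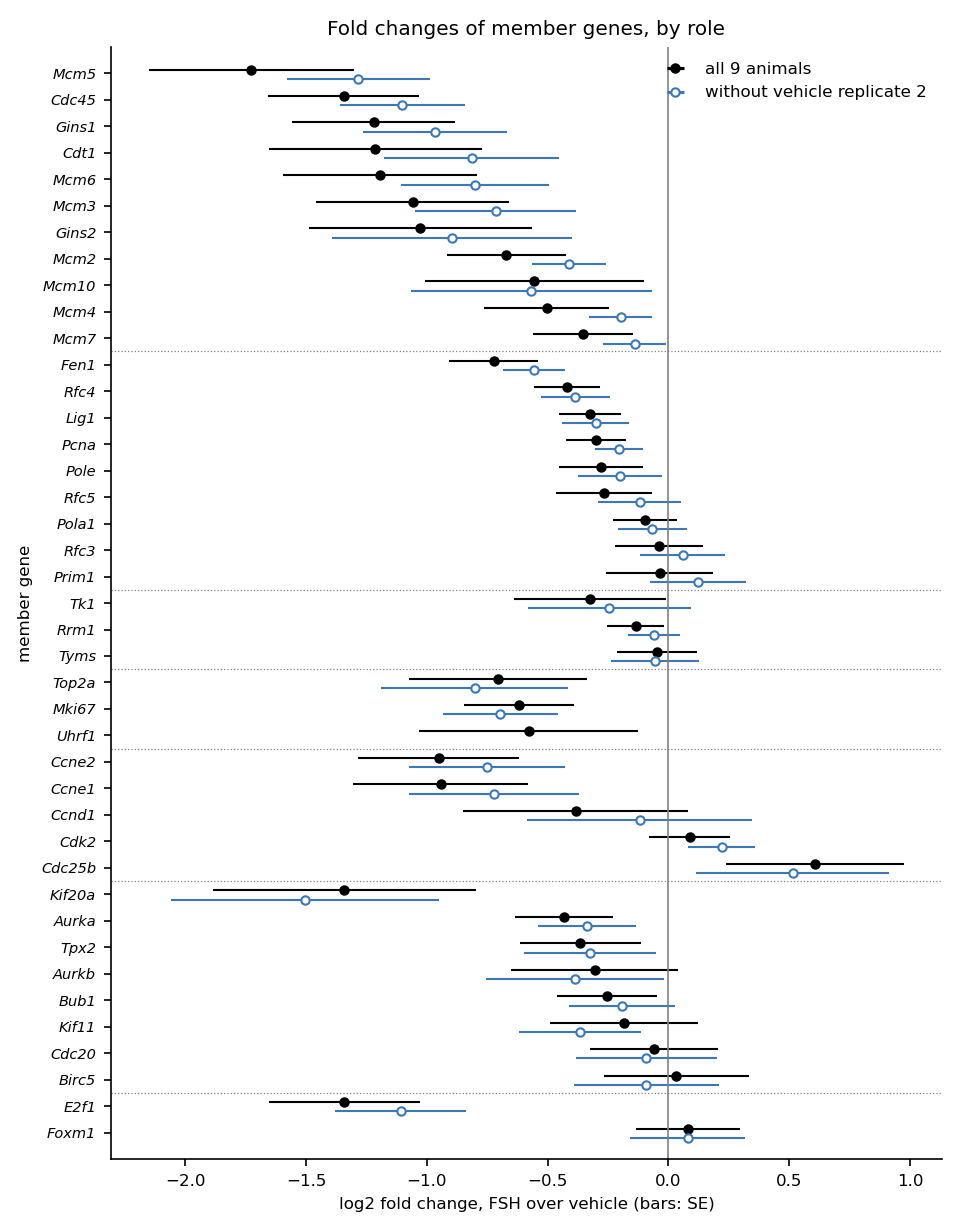
Log2 fold change, FSH over vehicle, of each tested member with its SE (horizontal axis), from all 9 animals (filled) and without vehicle replicate 2 (open), in the order of roles used above. Nearly all points lie left of 0, and the filled points furthest left are those of Mcm5, Cdc45, Kif20a and E2f1. Omitting that animal moved Mcm5 from −1.73 to −1.28 and Mcm7 from −0.36 to −0.14, and the open point furthest left is that of Kif20a. Uhrf1 has no open point, because too few reads remained for the filter.

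The filter on low counts removed 12 members, 11 of which had a lower mean CPM with FSH: the mitotic kinases Plk1, Ttk and Bub1b, the cyclins Ccnb1 and Ccna2 with their kinase Cdk1, the spindle proteins Nusap1 and Cenpf, the licensing factors Orc1 and Cdc6, the reductase subunit Rrm2, and the repressor E2f8. None of them exceeded 23 reads in any library. Cdk1 (ENSRNOG00000000632), the kinase that drives entry into mitosis, had 8, 11, 12, 9 and 10 reads with vehicle and 8, 6, 0 and 8 reads with FSH, and its FSH levels, 0.318, 0.243, 0 and 0.346 CPM, were below the vehicle levels, 0.419, 0.396, 0.424, 0.355 and 0.531 CPM. At this depth a single read is a visible step in these genes. Over all 53 members the mean CPM was lower with FSH in 48 and higher in 5, the latter being Orc1, Cdc25b, Cdk2, Birc5 and Foxm1.

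Genes of the same processes that are not members were mostly lower too, against shares of 49.5% lower and 5.14% lower at an unadjusted p under 0.05 over all genes tested. These lists were chosen with earlier results of these data known and were read in the same animals, so they are not independent support. Of 28 other replication genes tested, 24 were lower, 8 at an unadjusted p under 0.05 and 0 higher at that p, with a median of −0.16. Among them were Rpa1 and Rpa2, which coat single-stranded DNA, the clamp loader subunit Rfc2, the polymerase subunit Pold1, the origin subunit Orc2, the chromatin assembly factor Chaf1a and Gmnn, the inhibitor of Cdt1. Rpa2 was at 4.66, 7.13, 4.84, 4.497 and 4.25 CPM with vehicle and 3.65, 3.37, 3.86 and 3.197 CPM with FSH, without overlap. For Rpa2, edgeR put the log2 fold change at −0.53 with SE 0.17 (adjusted p = 0.298). Rfc2 had a log2 fold change, FSH over vehicle, of −0.41, with SE 0.13 and an edgeR adjusted p of 0.317. Of 52 other mitosis genes with a row, the filter kept 26. Of these 26, 24 were lower, 6 at that p, with a median of −0.34. They included the condensin subunit Ncapd2, at 11.03 ± 1.92 CPM with vehicle and 7.66 ± 1.29 CPM with FSH. The fit gave Ncapd2 a log2 fold change of −0.53 with SE 0.16 (adjusted p = 0.275 in edgeR). Cdca8, a subunit of the chromosomal passenger complex, had a value of −0.57 on the log2 scale with SE 0.17 (edgeR adjusted p = 0.288).

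Regulators upstream of these genes were not uniformly lower. Of 18 tested inhibitors and arrest genes 12 were higher, 4 at an unadjusted p under 0.05, with a median of 0.10. Over all 11924 genes tested, 49.5% were lower, 5.14% were lower at that p and 6.42% were higher at it. Gadd45a, an arrest gene induced by stress, was at 14.7, 9.36, 10.7, 17.5 and 18.3 CPM with vehicle and 16.6, 40.2, 25.02 and 20.3 CPM with FSH, where FSH replicate 1 lay within the vehicle range. For Gadd45a, edgeR put the log2 fold change at 0.86 with SE 0.27 (adjusted p = 0.307). Its relative Gadd45b had values of 2.68 ± 0.628 CPM and 4.34 ± 1.17 CPM. Gadd45b had a log2 fold change, FSH over vehicle, of 0.69, with SE 0.22 and an edgeR adjusted p of 0.315. The 2 kinases Lats1 and Lats2 of the Hippo pathway, which restrains growth, were the others at that p. Among 14 tested factors of the E2F, DREAM and Myb-MuvB families 9 were lower, 1 at that p, with a median of −0.04. That gene was Tfdp1, the partner with which E2F proteins bind DNA, at 20.3, 29.4, 25.9, 23.2 and 18.9 CPM with vehicle and 16.7, 17.9, 17.9 and 17.8 CPM with FSH, without overlap. The fit gave Tfdp1 a log2 fold change of −0.42 with SE 0.12 (adjusted p = 0.274 in edgeR). E2f6, a repressive E2F, had a value of −0.16 on the log2 scale with SE 0.08 (edgeR adjusted p = 0.469). E2f2 and E2f3, which are activating like E2f1, had values of −0.49 (SE 0.26) and 0.10 (SE 0.14). Mybl2, which encodes B-Myb, was at 0.481 ± 0.251 CPM with vehicle and 0.843 ± 0.849 CPM with FSH. Its value on the log2 scale was 0.79 (SE 0.63), with FSH replicate 2 the highest animal at 2.03 CPM.

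The 8 cyclin, kinase and Myc genes of the first gap phase outside the members were divided evenly, 4 lower and 4 higher. Myc, a transcription factor that promotes growth, was at 13.6, 16.99, 5.86, 11.4 and 16.2 CPM with vehicle and 11.2, 19.6, 36.9 and 35.1 CPM with FSH. FSH replicates 3 and 4 were high and the other 2 were near the vehicle animals. For Myc, edgeR put the log2 fold change at 1.01 with SE 0.37 (adjusted p = 0.353). Ccnd2, cyclin D2, had a value of 0.34 on the log2 scale with SE 0.24 (edgeR adjusted p = 0.627). Of 12 tested growth factors and receptors for liver cells, 8 were higher, 4 at an unadjusted p under 0.05 and 0 lower at that p, with a median of 0.20. Among all genes tested, 6.42% were higher and 5.14% lower at that p. Met, the receptor of hepatocyte growth factor, was at 22.8, 23.5, 26.6, 22.3 and 24.7 CPM with vehicle and 31.4, 30.9, 28.3 and 30.3 CPM with FSH, with every FSH animal above. Met had a log2 fold change, FSH over vehicle, of 0.33, with SE 0.07 and an edgeR adjusted p of 0.19. Il6st, the signalling chain of interleukin-6 receptors, had a value of 0.58 on the log2 scale with SE 0.18 (edgeR adjusted p = 0.307). The others higher at that p were Tgfbr1 and Tgfbr2, receptors of transforming growth factor beta. Their values were 0.35 (SE 0.12) and 0.21 (SE 0.09), so the list pools receptors of different pathways. The ligands Areg and Ereg were listed at 0 in all 9 libraries. None of the 6 context lists held a gene past an edgeR adjusted p of 0.05.

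**Figure D5:**
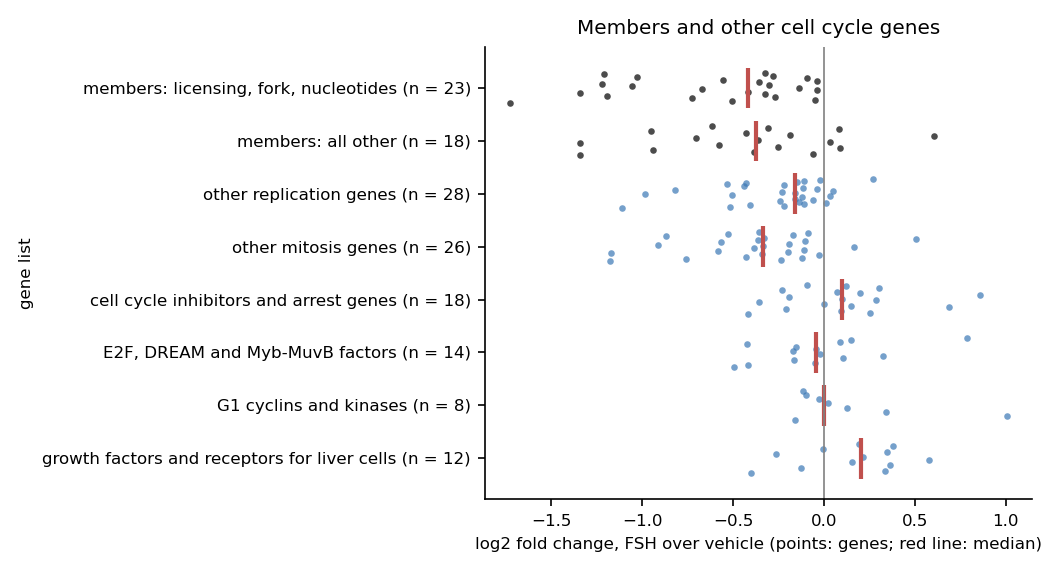
Log2 fold change, FSH over vehicle, of the tested members and of tested genes on 6 further lists (1 point per gene), with a red line at each list's median. The medians of the members and of the other replication and mitosis genes are below 0, and those of inhibitors and of growth factors and receptors are above it, at 0.10 and 0.20.

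Markers of other cell types held 0 genes past an edgeR adjusted p of 0.05, and their sums were set beside those of the members. Over all genes tested, 49.5% were lower, 5.14% were lower at an unadjusted p under 0.05 and 6.42% were higher at it. Markers of stellate cells and fibroblasts summed to 215, 199.7, 195, 259 and 216 CPM with vehicle and 147, 172, 159 and 183 CPM with FSH, so that all FSH animals were lower, with 7 of 8 genes lower, 2 of them at an unadjusted p under 0.05. Among them Col3a1, a fibrillar collagen, had a value of −0.45 on the log2 scale with SE 0.11 (edgeR adjusted p = 0.211). Col3a1 made up most of that gap, at 158 ± 21 CPM and 115 ± 12.6 CPM. Those of sinusoidal endothelium summed to 194, 174, 169.8, 226 and 178 CPM and 261, 224, 223 and 201 CPM, with overlapping sums and 6 of 7 tested genes higher, 4 at an unadjusted p under 0.05. Clec4g, a lectin of these cells, had a value of 0.61 on the log2 scale with SE 0.13 (edgeR adjusted p = 0.19). Erythroid markers were at 73.2 to 155 CPM with vehicle and 119 to 486 CPM with FSH, also overlapping, with 3 of 3 tested genes higher, 1 at that p. Hbb, a globin, had a value of 1.54 on the log2 scale with SE 0.35 (edgeR adjusted p = 0.204). Markers of T, NK and B cells were scarce, at 2.41 to 6.71 CPM and 2.699 to 4.24 CPM, as were those of neutrophils and their precursors, at 0.936 to 2.52 CPM and 0.992 to 3.05 CPM. Kupffer cell markers summed to 226 to 614 CPM with vehicle, lowest in replicate 2, and 386 to 561 CPM with FSH, and cholangiocyte markers to 11.9 to 20.7 CPM and 9.33 to 17.7 CPM. No marker with a row was at 0 in all libraries, and the part of any of these cell types in the lower replication and mitosis values was not tested.

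Several members share their locus with another gene in RefSeq, among them Fen1 with Tmem258, Lig1 with Zswim9, Gins2 with Gse1, Ccne2 with Ints8, Cdk2 with Pmel, Kif20a with Cdc23, Aurka with Fam210b, Uhrf1 with Arrdc5 and Foxm1 with Tex52. The libraries kept strand, but the strand setting of the counting is not given in the sources used here, so reads of such pairs may have been shared and the values of these members are uncertain to that extent.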

How the data were processed

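Liver RNA-seq of 9 rats (5 vehicle, 4 FSH) was read from 1 table of raw read counts per gene that the authors deposited. Per the submitters' processing notes, STAR, edgeR and DESeq2 were used with the build rn6; no source used here gives their versions or names the counting program. Groups and replicate numbers come from the labels, which call the samples individual animals. The members and all gene lists were chosen with earlier results of these data known.

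The counts were fitted with edgeR 4.0.16 in R 4.3.3: filterByExpr by group (minimum count 10) kept 11924 of 24496 genes with 99.96% of the reads, TMM factors scaled the libraries, and glmQLFTest compared FSH with vehicle, two-sided, without covariates. P-values were adjusted by Benjamini-Hochberg over all genes kept, with a threshold of 0.05. Standard errors are the log2 fold change over the square root of its F. Levels are TMM-scaled CPM, and log2 levels per animal used a prior count of 2. The 8868 genes at 0 in every library cannot be read as not expressed.

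Named members are, per role, the 3 with the smallest p and the one with the highest mean CPM, plus every member at an unadjusted p under 0.05; from each further list of cell cycle or growth genes the 2 with the smallest p are given with values, and from each marker list its summed level. Genes beyond these, chosen after their values were seen, are Cdk1, Cdk2, Rrm2, E2f2, E2f3, Mybl2, Tgfbr1, Tgfbr2, Col3a1, Clec4g, Hbb and those listed by name only or as the rest of a role. The alternatives tried were: DESeq2 1.42.0 and limma-voom (limma 3.58.1, with quality weights) as models; scaling by RLE factors or by library totals; the low-count filter dropped, or set to 1 CPM or more in 4 or more libraries; the replicate number as a block; an FDR of 0.10; and the omission of each animal in turn. Subunit shares of Mcm2 to Mcm7 and their leave-one-out values were added after the data were seen and tested by exact permutation (SciPy 1.17.1). The edgeR step was tested on simulated counts. No library was treated as a copy of another, since within a group any pair differed by far more than sampling noise (chi-square over degrees of freedom at least 25.9).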

Additional observations from a re-analysis of the deposited data

Results flagged for a closer look

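By Dixon's criterion, 86 sets of values were searched for a single animal far from the rest. Each set was a named member, a role's sum, the sum of all members or of Mcm2 to Mcm7, or a ring subunit's share, within 1 group. Such an animal was found in 10 sets, where chance would give about 4 if the sets were independent. Many of them share genes, so they were not independent. In the vehicle group, replicate 2 was high in Fen1 (7.81 CPM, next 5.17), in Mcm7 (23.5 CPM, next 14.4) and in the summed licensing and helicase genes (109.9 CPM, next 62.6). Vehicle replicate 4 was high in Cdc25b (2.13 CPM, next 1.10) and in the summed chromatin genes Mki67, Top2a and Uhrf1 (5.44 CPM, next 3.74), and vehicle replicate 3 was low in Lig1 (4.13 CPM, next 5.13). In the FSH group, replicate 4 was high in Foxm1 (2.76 CPM, next 1.79), in the summed transcription factors (3.63 CPM, next 2.66) and in the summed Mcm2 to Mcm7 (37.7 CPM, next 32.3), and replicate 1 was low in the summed deoxynucleotide enzymes (16.5 CPM, next 20.3). The values of these animals are included in the comparisons above.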

How the results depend on the processing

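The direction of the set did not depend on a setting: between 33 and 39 of the members tested were lower whichever animal was omitted, and 36 or 37 of the 41 under the block, limma-voom and both other scalings. DESeq2 was the only setting to call members (4, where edgeR called 0). The count lower at an unadjusted p under 0.05 was smallest without FSH replicate 3, at 10 of 42, where 4.12% of all genes were lower at that p. It was largest without vehicle replicate 3, at 20 of 38, where 5.45% of all genes were. The count higher at that p ranged from 0 to 1 (Cdc25b, without vehicle replicate 4), beside 6.42% of all genes in the main fit. The count of members without overlap ranged from 6 to 11. It was 11 without vehicle replicate 3 (3.24% of all genes) and 10 without FSH replicate 4 (4.14%). Among named members, Tyms turned to 0.022 on the log2 scale with limma-voom, and over the omissions of an animal it ran from −0.17 to 0.051, above 0 when vehicle animal 3 or FSH animal 1 or 3 was omitted. Over the same omissions Foxm1 ran from −0.12 (without FSH replicate 4) to 0.17, and was −0.0013 without vehicle replicate 3. Other members near 0 turned too: Prim1 (−0.18 to 0.12), Rfc3 (−0.13 to 0.06), Cdc20 (−0.23 to 0.10) and Birc5 (−0.13 to 0.20). The difference, FSH minus vehicle, in the share of Mcm2 among the ring subunits ran from −0.95 to 1.09 percentage points. It was below 0 when vehicle animal 2 or 3 or FSH animal 1 or 2 was omitted. The cause of these changes was not tested. Replicate numbers did not pair the animals (correlations of same-numbered deviations 0.03, 0.0023, 0.03 and −0.04). With the replicate block, 0 members passed, and 14 of 41 were lower at an unadjusted p under 0.05, where 4.27% of all genes were. In that fit 36 members were lower in all, beside 49% of all genes, with a median of −0.45. Depth left 12 members with too few reads to test.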

Other observations

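Relative SDs of these genes were set beside those of all genes, with no test. The SD relative to the mean had a median over the tested members of 30.2% in the vehicle group and 19.8% in the FSH group, beside 13.6% and 12.3% over all genes tested, and it was larger in the vehicle group for 26 of the 41 members (63.4%), near the 55.3% of all genes that had it larger there.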
